A study of Rattus norvegicus with 6 samples.

Results

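Toll-like receptors, the coreceptor Cd14 and the adaptor Myd88 were followed in liver RNA of rats with CCl4-induced fibrosis. The genes were chosen by symbol from a list of 10 names, and 9 of them were found among the 19616 genes with values; Ly96, the extracellular partner of Tlr4, was not analysed here. The 9 genes were 7 receptors, Cd14 and Myd88, and all 9 passed the filter on low values (0.1 FPKM as the lowest allowed mean of the 6 rats). The FL group held 3 male Sprague-Dawley rats, numbered 2, 5 and 12, that received carbon tetrachloride (CCl4), a solvent toxic to hepatocytes, dissolved in olive oil by intraperitoneal injection, with doses of 2 mL/kg given 2 times a week over 5 weeks. The CL group held 3 such rats, numbered 5, 6 and 7, that received the same volume of olive oil. RNA of whole liver tissue was depleted of ribosomal RNA and sequenced, with 1 library per rat.

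Toll-like receptors are membrane proteins of innate immune cells and of some tissue cells that bind molecules of microbes or of damaged tissue. Receptors at the cell surface bind bacterial lipids and proteins, receptors in endosomes bind nucleic acids, and nearly all of them pass the signal through Myd88 and the kinases of the Irak family to NF-kappaB and interferon regulatory factors. The liver meets bacterial products from the gut through the portal blood, and Kupffer cells, sinusoidal endothelial cells, stellate cells and hepatocytes are all known to carry such receptors. The comparison asked how much of each transcript the livers of the 2 groups held.

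Values are FPKM, in which the fragment number of a gene is corrected for transcript length and library size. They summed to 309425 in CL5, 340467 in CL6 and 315259 in CL7, against 309226 in FL2, 272350 in FL5 and 272110 in FL12. The number of reads behind a value is unknown, and the spacing of small FPKM values among U6 genes, which are alike in length, gave only a relative depth of 1 in CL5, 0.656 in CL6 and 0.84 in CL7, against 0.677 in FL2, 0.75 in FL5 and 0.677 in FL12. Albumin (Alb), which defines hepatocytes, read 33392 FPKM in CL5, 31431 in CL6 and 31992 in CL7, against 24149 in FL2, 25052 in FL5 and 25209 in FL12. It was abundant in all 6 rats, as in liver tissue, and each FL rat lay below each CL rat (log2 fold change -0.38, adjusted p = 0.804 from limma). The spread was small (32272 ± 1010 FPKM in the CL and 24803 ± 572 FPKM in the FL group, SD). The standard error of 0.98 came largely from the prior variance that limma assigns to such abundant genes. This p therefore does not measure the spread of the rats. Col1a1, the collagen gene of activated stellate cells, read 2.12 FPKM in CL5, 3.77 in CL6 and 2.12 in CL7, against 17 in FL2, 101 in FL5 and 73.7 in FL12, so FL2 held the least of the FL rats.

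Tlr2 and Tlr4 were upregulated in the FL group, by an adjusted p under 0.05 in limma together with a fold change of at least 2 on the log2(FPKM + 0.1) scale, and 0 of the 9 genes were downregulated. By that rule 9.29% of the 14864 genes tested were upregulated and 0.935% downregulated. An unadjusted p under 0.05 was reached by 5 of the 9, each of them higher in the FL group, where 31.5% of all genes tested were higher and 4.04% lower by the same limit. Without the limit on the fold change, 4 genes (Tlr2, Tlr3, Tlr4 and Tlr7) were higher at an adjusted p under 0.05, as were 16.9% of all genes tested. All FL rats lay above all CL rats for 6 of the 9 genes, which held for 35.7% of all genes tested, and all lay below for 0 of the 9, against 4.78% of all genes. The log2 fold change was positive for 8 of the 9 and negative for Cd14 alone, in every scaling tried, and 77.9% of all genes tested had a positive one. Its median was 0.86 over the 9 genes and 0.29 over all genes tested. With median scaling between the rats these medians became 0.70 and 0.08, and with quantile normalization 0.37 and -0.04. Because the tissue was sequenced in bulk, fewer cells of a type and less RNA per cell cannot be told apart, and the same holds for more cells and more RNA per cell.

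**Figure D1:**
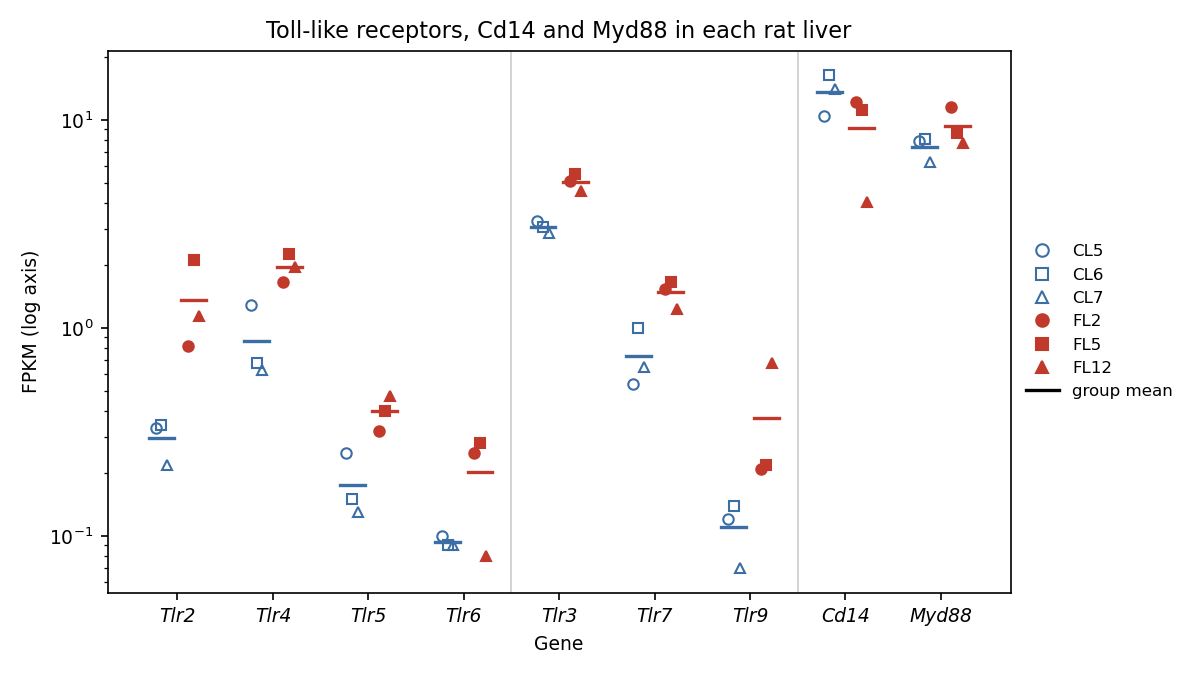
FPKM (log axis) of each gene in each rat, with open blue symbols for the 3 CL rats, filled red symbols for the 3 FL rats and bars for the group means; surface receptors stand left, endosomal receptors in the middle, and Cd14 and Myd88 right. The groups are apart for Tlr2, Tlr4, Tlr5, Tlr3, Tlr7 and Tlr9, and they overlap for Tlr6, Cd14 and Myd88.

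Tlr2 (ENSRNOG00000009822, chromosome 2) pairs with Tlr1 or Tlr6 at the cell surface and binds bacterial lipoproteins. It read 0.33 FPKM in CL5, 0.34 in CL6 and 0.22 in CL7, against 0.82 in FL2, 2.12 in FL5 and 1.14 in FL12. Every FL rat lay above every CL rat, and FL5 was the highest, followed by FL12 and FL2, as for Col1a1. The mean rose from 0.297 ± 0.0666 FPKM to 1.36 ± 0.677 FPKM (SD, with n = 3 rats in each group), a log2 fold change of 1.80 with a standard error of 0.36 and a 95% interval from 0.97 to 2.62 (adjusted p = 0.0146 from limma). This was the largest log2 fold change of the 9 genes, and it exceeded the median of all genes by 1.51. The call held in 9 of 13 alternatives, with adjusted p from 0.00925 to 0.0607. It was lost with quantile normalization (1.24, adjusted p = 0.0607), with no filter on low values (still 1.80, adjusted p = 0.0525), without CL7 (1.65, adjusted p = 0.0596), and with a pseudocount of 1, which took the log2 fold change to 0.83.

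Tlr4 (ENSRNOG00000010522, chromosome 5) is the receptor for lipopolysaccharide of Gram-negative bacteria. Its values were 1.29 FPKM in CL5, 0.68 in CL6 and 0.63 in CL7, against 1.67 in FL2, 2.27 in FL5 and 1.96 in FL12. The groups did not overlap, although CL5 stood nearer to FL2 than to the other CL rats. The mean rose from 0.867 ± 0.367 to 1.97 ± 0.300 FPKM, and the log2 fold change was 1.15 (95% interval 0.50 to 1.80, standard error 0.28, adjusted p = 0.0293 from limma). The call held in 6 of 14 alternatives. Median scaling gave 0.94 (adjusted p = 0.0632) and quantile normalization 0.64 (adjusted p = 0.173), in a range of adjusted p from 0.0204 to 0.173. Leaving out CL6 (1.03, adjusted p = 0.0883), CL7 (0.98, adjusted p = 0.105), FL5 (1.05, adjusted p = 0.0985) or FL12 (1.15, adjusted p = 0.0755) also ended the call, with log2 fold changes near that of all 6 rats, as did the absence of a filter (still 1.15, adjusted p = 0.0783) and a pseudocount of 1 (log2 fold change 0.68).

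Tlr5 (ENSRNOG00000022067, chromosome 13), the receptor for bacterial flagellin, read 0.25 FPKM in CL5, 0.15 in CL6 and 0.13 in CL7, against 0.32 in FL2, 0.40 in FL5 and 0.47 in FL12. The groups did not overlap, but the lowest FL rat and the highest CL rat were close. Its log2 fold change of 0.86 (standard error 0.33, 95% interval 0.09 to 1.63) did not pass the adjusted threshold (adjusted p = 0.109 from limma). It passed without the trend of the prior variance (adjusted p = 0.0470), at under 2-fold, and was 0.27 with quantile normalization (adjusted p = 0.619) and 0.25 with a pseudocount of 1. Tlr6 (ENSRNOG00000002161, chromosome 14), a partner of Tlr2, stood at 0.10 FPKM in CL5, 0.09 in CL6 and 0.09 in CL7, against 0.25 in FL2, 0.28 in FL5 and 0.08 in FL12. FL2 and FL5 lay above the CL rats, while FL12 lay below all of them. Its log2 fold change was 0.58, with a 95% interval from -0.42 to 1.57 (adjusted p = 0.367 from limma). It moved to 0.92 without FL12 (adjusted p = 0.170), 0.38 without FL5 (adjusted p = 0.640), 0.05 with quantile normalization (adjusted p = 0.950) and 0.13 with a pseudocount of 1, and the adjusted p lay between 0.170 and 0.950 in the 13 alternatives. At this level the rounding of the values to 2 decimals is a visible part of each value, and reads of Tlr6 that it shares with the similar genes Tlr1 and Tlr10 could have been lost.

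Among the endosomal receptors, Tlr3 (ENSRNOG00000021726, chromosome 16) binds double-stranded RNA and is the family member that signals without Myd88. It read 3.26 FPKM in CL5, 3.04 in CL6 and 2.85 in CL7, against 5.09 in FL2, 5.51 in FL5 and 4.56 in FL12. Both groups were tight and lay well apart. The mean was 3.05 ± 0.205 FPKM in the CL and 5.05 ± 0.476 FPKM in the FL group. Its log2 fold change of 0.71 (95% interval 0.39 to 1.02, standard error 0.14) had an adjusted p of 0.0131 in limma and remained under 2-fold. Relative to the median of all genes it was 0.42. Its adjusted p lay under 0.05 in 10 of 14 alternatives, in a range from 0.00889 to 0.138. Quantile normalization gave 0.37 (adjusted p = 0.138) and median scaling 0.49 (adjusted p = 0.0518). The threshold was also missed without CL7 (0.66, adjusted p = 0.0574) and without FL5 (0.64, adjusted p = 0.0534).

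Tlr7 (ENSRNOG00000004249, chromosome X) binds single-stranded RNA. Its values were 0.54 FPKM in CL5, 1 in CL6 and 0.65 in CL7, against 1.54 in FL2, 1.67 in FL5 and 1.24 in FL12. The lowest FL rat, FL12, lay above the highest CL rat, CL6. The log2 fold change was 0.96 (standard error 0.26, 95% interval 0.36 to 1.56, adjusted p = 0.0394 from limma), just under the fold limit, and its adjusted p lay under 0.05 in 6 of 14 alternatives (range 0.0362 to 0.327, the latter with quantile normalization, which gave 0.42). It passed both limits with a pseudocount of 0.01 (1.05) and without CL6 (1.18). Tlr9 (ENSRNOG00000048161, chromosome 8), which binds DNA rich in unmethylated CpG, read 0.12 FPKM in CL5, 0.14 in CL6 and 0.07 in CL7, against 0.21 in FL2, 0.22 in FL5 and 0.68 in FL12. FL12 alone stood far above the rest, and FL2 and FL5 lay close above the CL rats. Its log2 fold change of 1.04 had a 95% interval from -0.02 to 2.09 (adjusted p = 0.147 from limma), and it was 0.60 without FL12 (adjusted p = 0.366), 0.45 with quantile normalization (adjusted p = 0.536) and 0.29 with a pseudocount of 1.

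Cd14 (ENSRNOG00000017819, chromosome 18) hands lipopolysaccharide to Tlr4 and Ly96 and is carried by monocytes and macrophages. It read 10.47 FPKM in CL5, 16.37 in CL6 and 14.01 in CL7, against 12.16 in FL2, 11.16 in FL5 and 4.02 in FL12. The groups overlapped, since FL2 and FL5 lay above CL5, and FL12 held the least of the 6 rats. The mean was 13.6 ± 2.97 FPKM in the CL and 9.11 ± 4.44 FPKM in the FL group, and the log2 fold change of -0.70 (standard error 0.39, 95% interval -1.61 to 0.21) did not pass (adjusted p = 0.237 from limma). It was negative in each of 14 alternatives but rested much on FL12, being -0.20 without that rat (adjusted p = 0.531) and -0.99 without FL2 (adjusted p = 0.126).

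Myd88 (ENSRNOG00000013634, chromosome 8), the adaptor that joins most of the receptors to the Irak kinases, read 7.93 FPKM in CL5, 8.14 in CL6 and 6.26 in CL7, against 11.54 in FL2, 8.64 in FL5 and 7.75 in FL12. FL12 lay below CL5 and CL6, so the groups overlapped. The log2 fold change was 0.31, with a 95% interval from -0.11 to 0.72 (adjusted p = 0.252 from limma), close to the median of all genes, and the scalings took it to 0.09 (median) and 0.05 (quantile).

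**Figure D2:**
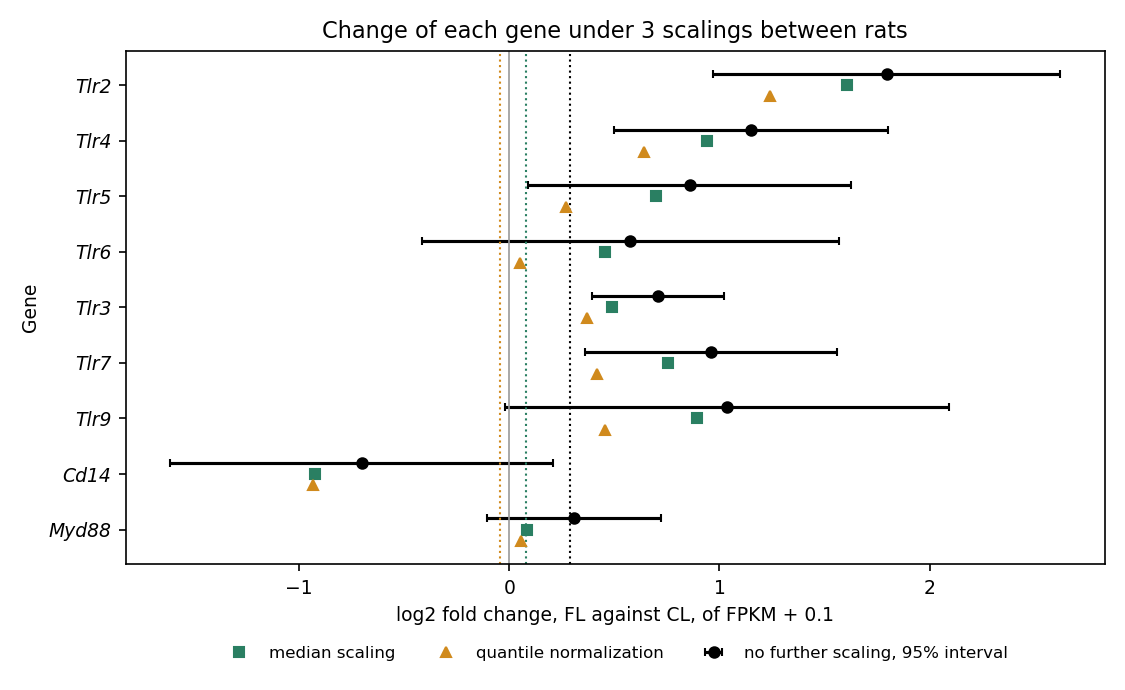
Log2 fold change (FL against CL) of each gene on the log2(FPKM + 0.1) scale without further scaling between the rats (black, with 95% intervals), with median scaling (green squares) and with quantile normalization (orange triangles); dotted lines of the same colours mark the median of all genes tested. Cd14 alone lies below 0, and the estimate of each gene moves down with the scalings, for Tlr2 from 1.80 to 1.61 and 1.24.

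By mean FPKM, a level per transcript length, Cd14 and Myd88 were the most abundant of the 9 genes and Tlr3 was the most abundant receptor in both groups. In the CL group the order was Cd14, Myd88, Tlr3, Tlr4, Tlr7, Tlr2, Tlr5, Tlr9 and Tlr6. The ranges over the rats overlapped between Tlr4 and Tlr7, and between each neighbouring pair from Tlr2 down to Tlr6, and the other neighbours were separate. In the FL group Myd88 and Cd14 changed places with overlapping ranges, Cd14 overlapped with Tlr3, and Tlr2 reached the range of Tlr7, while Tlr3 lay above Tlr4 and Tlr2 above Tlr5 in every FL rat. Tlr4 and Tlr7 overlapped there too, and Tlr9 overlapped with both Tlr5 and Tlr6, which were separate from each other. A mean under 1 FPKM in the CL group was found for 6 of the 7 receptors. Rats of the FL group did not share 1 order of levels: FL5 was the highest of them for 5 of the 9 genes, FL2 for 2 and FL12 for 2.

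The FPKM of the 7 receptors together came to 5.89 in CL5, 5.44 in CL6 and 4.64 in CL7, against 9.90 in FL2, 12.47 in FL5 and 10.13 in FL12. The sum of the 4 surface receptors was 1.43 ± 0.474 FPKM in the CL and 3.93 ± 1.03 FPKM in the FL group (n = 3 each, SD), and that of the 3 endosomal receptors 3.89 ± 0.306 and 6.91 ± 0.464 FPKM. Both sums were higher in each FL rat than in each CL rat. Tlr3 made up 57.6 ± 3.36% of the receptor sum in the CL and 46.9 ± 3.96% in the FL group, without overlap, whereas the endosomal share (73.4 ± 5.97% and 64.1 ± 4.88%) overlapped, with 66.6% in CL5 and 69.1% in FL2. Both shares hold for these 7 receptors only. They leave out Tlr8, a further receptor of the endosome, which read 1.07 ± 0.154 FPKM in the CL and 3.80 ± 1.14 FPKM in the FL group.

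In a ratio of 2 genes within a rat, a scale factor of that rat cancels except for the 0.1 FPKM added to each value. The log2 ratio of Tlr2 to its partner Tlr6 was 1.10 in CL5, 1.21 in CL6 and 0.75 in CL7, against 1.39 in FL2, 2.55 in FL5 and 2.78 in FL12. Each FL rat lay above each CL rat, FL2 by little, and the difference of means was 1.22 (exact permutation test, two-sided p = 0.1, Benjamini-Hochberg adjusted over 3 ratios 0.15). This separation depended on the amount added. With 0.01 FPKM in place of 0.1, FL2 (1.67) lay below CL6 (1.81), so the groups overlapped. The difference was then 1.20 (exact permutation p = 0.2). With 1 FPKM added the groups stayed apart (0.54 in FL2, 0.30 in CL6), with a difference of 0.69 (exact permutation p = 0.1). The log2 ratio of Cd14 to Tlr4 was 2.93 in CL5, 4.40 in CL6 and 4.27 in CL7, against 2.79 in FL2, 2.25 in FL5 and 1 in FL12. All FL rats lay below the CL rats, but FL2 was close to CL5, and the difference was -1.85 (exact permutation p = 0.1, adjusted 0.15). The log2 ratio of Tlr7 to Tlr9 overlapped between the groups, with means of 1.96 and 1.88 (difference -0.08, exact permutation p = 1). With 3 rats against 3, 0.1 is the smallest two-sided p that the 20 divisions of the rats allow, so no ratio could pass 0.05.

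Markers of immune cells were read in the same rats, beside the 9.29% of all genes tested that were upregulated, the 16.9% that were higher at an adjusted p under 0.05 and the 31.5% that were higher at an unadjusted one. Ptprc, which marks all leukocytes, read 3.19 FPKM in CL5, 3.25 in CL6 and 3.12 in CL7, against 8.12 in FL2, 10.19 in FL5 and 8.72 in FL12 (log2 fold change 1.46, adjusted p = 0.00165 from limma). Of 12 macrophage markers, 3 were upregulated (Marco, Cd68 and Csf1r). Without the limit on the fold change 5 of the 12 (C1qa and C1qb as well) were higher at an adjusted p under 0.05, and 10 at an unadjusted one, all but Mrc1 (log2 fold change 0.11, adjusted p = 0.516) and Clec4f (-0.017, adjusted p = 0.974). The FPKM of the 12 markers summed to 217 in CL5, 206 in CL6 and 210 in CL7, against 419 in FL2, 413 in FL5 and 255 in FL12, with Clec4f as the most abundant by the mean of the CL group and C1qc by that of the FL group. FL12, the FL rat with the least Cd14, also held the least of this sum and 26.27 FPKM of Clec4f, the marker of resident Kupffer cells, against 66.59 in FL2 and 57.44 in FL5. The low value of FL12 was not limited to macrophage genes. The hepatocyte marker Ass1 read 329 FPKM there, against 636 in FL2 and 750 in FL5, whereas Alb was not lowest in FL12. Of 5 neutrophil markers tested, 3 were upregulated (S100a8, S100a9 and Csf3r) and all 5 were higher at an unadjusted p under 0.05, and the sum of the 8 found, led by S100a8, was 0.53 FPKM in CL5, 1.07 in CL6 and 1.26 in CL7, against 5.56 in FL2, 2.39 in FL5 and 4.91 in FL12. Mpo and Elane, which define neutrophil granules, were listed at 0 in every CL rat and at no more than 0.06 FPKM in the FL rats. The part of these cells in the receptor values was not tested.

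Of 8 dendritic cell markers, 2 were upregulated (Itgax and Clec10a) and 4 were higher at an unadjusted p under 0.05. The 6 not called had log2 fold changes of -0.38 (Xcr1), 0.27 (Zbtb46), 0.31 (Clec9a), 0.67 (Ccr7), 0.73 (Flt3) and 1.21 (Siglech). Zbtb46 was the most abundant in the CL and Clec10a in the FL group, and the sum was 3.05 FPKM in CL5, 2.59 in CL6 and 2.60 in CL7, against 4.87 in FL2, 7.58 in FL5 and 7.78 in FL12. Of 6 T or NK cell markers tested, 1 was upregulated (Cd2) and 2 were higher at an unadjusted p under 0.05, against 9.29% and 31.5% of all genes tested, so the latter share was near that of all genes. The 7 found had sums of 1.93 ± 0.475 FPKM in the CL group, led by Nkg7, and 3.20 ± 0.964 FPKM in the FL group, led by Cd2. Of the stellate cell or myofibroblast markers, 5 of 8 were upregulated (Col1a1, Lum, Col3a1, Des and Pdgfrb) and 7 were higher at an unadjusted p under 0.05, and the sum of the 8, led by Col3a1, was 75.1 ± 3.29 FPKM in the CL and 385 ± 170 FPKM in the FL group. In limma 0 of 2 B cell, 0 of 7 sinusoidal endothelial, 0 of 5 cholangiocyte and 0 of 8 hepatocyte markers were called. At an unadjusted p under 0.05 there were 1 (Cd79a), 2 (Stab2 and Cdh5), 1 (Cftr) and 1 (Apoa1) of them higher in the FL group and 0 lower, and Stab2 alone also passed the adjusted threshold (log2 fold change 0.75, adjusted p = 0.0143), at under 2-fold. Of the 8 hepatocyte markers, 3 (Alb, Ttr and Ass1) were lower in each FL rat than in any CL rat, against 4.78% of all genes tested, and 2 (Apoa1 and Tf) were higher, against 35.7%. The standard errors of Alb, Ttr and Tf (0.98, 0.42 and 0.48) came largely from the prior variance of abundant genes. The missing calls therefore do not show that these levels were unchanged. Pecam1, a further endothelial marker, was not analysed here. The sums of these lists were 0.733 ± 0.0874 and 1.59 ± 0.435 FPKM for B cells (Cd79a highest), 97.7 ± 7.29 and 105 ± 13.5 FPKM for the endothelium (Fcgr2b), 6.24 ± 1.31 and 8.23 ± 2.94 FPKM for cholangiocytes (Epcam) and 50846 ± 1301 and 43076 ± 838 FPKM for hepatocytes (Alb). Acta2, the smooth muscle actin of myofibroblasts, read 3.05 ± 0.693 and 10.3 ± 6.75 FPKM, with 3.87 in FL2 and 17.3 in FL5 (adjusted p = 0.0609). Among the marker calls, those of Ptprc, Marco, Cd68, Itgax, Col1a1, Col3a1, Des and Pdgfrb held in every alternative that gave a value. That of Cd2 held in 6 of 13 (adjusted p from 0.0225 to 0.198), being lost with both scalings, a pseudocount of 1 and no filter, and without CL5, CL6 or FL5. The call of Lum held in 8 of 14 alternatives, Csf1r in 11 of 14, Csf3r in 10 of 13 and Clec10a in 13 of 14, while those of S100a8 and S100a9 were lost in most alternatives.

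Set against these markers within each rat, the genes parted. Per 100 FPKM of the macrophage markers, Cd14 came to 4.83 FPKM in CL5, 7.95 in CL6 and 6.68 in CL7, against 2.90 in FL2, 2.70 in FL5 and 1.58 in FL12. Every FL rat lay below every CL rat, and the same was found per FPKM of Ptprc (4.27 ± 0.898 in the CL and 1.02 ± 0.523 in the FL group) and per 100 FPKM of Cd68 (116 ± 22.2 and 23.2 ± 10.7). Tlr2 per 100 FPKM of the macrophage markers was 0.152 in CL5, 0.165 in CL6 and 0.105 in CL7, against 0.196 in FL2, 0.513 in FL5 and 0.448 in FL12. Each FL rat lay above each CL rat by this measure, while the groups overlapped per FPKM of Ptprc and per 100 FPKM of Cd68. Tlr4 overlapped by all 3 measures, with 0.272 ± 0.115 and 0.218 ± 0.0105 FPKM per FPKM of Ptprc. Myd88 per FPKM of Ptprc was 2.33 ± 0.282 in the CL and 1.05 ± 0.320 in the FL group, and Tlr3 0.957 ± 0.0574 and 0.564 ± 0.0556, both without overlap. The same held per 100 FPKM of Cd68, with 63.3 ± 6.66 and 24.8 ± 7.22 FPKM for Myd88 and 26.0 ± 1.90 and 13.3 ± 1.68 FPKM for Tlr3, whereas both genes overlapped per 100 FPKM of the macrophage markers. Tlr6 and Tlr7 were lower in each FL rat than in each CL rat per 100 FPKM of Cd68 and overlapped by the other measures, and Tlr5 and Tlr9 overlapped by all 3. The markers used as divisors rose themselves (log2 fold change 1.46 for Ptprc and 1.69 for Cd68). A gene that rose less than they did is therefore lower per FPKM of them. How many of all genes tested are lower in this way was not computed. These quotients were computed after the values had been seen and are a description without a test.

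The other genes of the pathway were read from 7 lists with 93 genes, of which 87 were found and 80 tested. Of these 80, 23 were upregulated (28.75%, against 9.29% of all genes tested) and 0 downregulated by limma, while at an unadjusted p under 0.05 there were 43 higher and 0 lower, against 31.5% and 4.04% of all genes. The median log2 fold change of the 80 genes was 0.68, against 0.29 for all genes tested. Among the other Toll-like receptors, 2 of 4 were upregulated, and Tlr1 and Tlr13 were not analysed here. Tlr8, the neighbour of Tlr7 on chromosome X and a receptor of the endosome, read 0.97 FPKM in CL5, 1 in CL6 and 1.25 in CL7, against 3.01 in FL2, 5.11 in FL5 and 3.27 in FL12. The groups lay far apart, with FL5 highest as for Tlr7 (log2 fold change 1.70, adjusted p = 0.00490 from limma). Tlr10 rose from 0.310 ± 0.199 to 0.900 ± 0.201 FPKM (log2 fold change 1.37, adjusted p = 0.0394), with the same limit on shared reads as Tlr6.

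Of 14 cofactors, chaperones and other adaptors, 6 were upregulated, against 9.29% of all genes tested, with Lbp, Scimp and Tril the highest by fold change. Lbp, the serum protein that brings lipopolysaccharide to Cd14, read 16.95 FPKM in CL5, 15.98 in CL6 and 23.51 in CL7, against 179.87 in FL2, 49.23 in FL5 and 83.27 in FL12. FL2 held the most and every FL rat exceeded the CL rats (log2 fold change 2.28, adjusted p = 0.0111 from limma). Scimp, a membrane adaptor of immune cells, and Tril, a membrane protein that assists Tlr4 and Tlr3, had log2 fold changes of 1.81 and 1.79. Unc93b1, the chaperone that takes the endosomal receptors to their compartment, read 3.59 ± 0.178 FPKM in the CL and 10.02 ± 2.08 FPKM in the FL group (log2 fold change 1.44, adjusted p = 0.00308). Cd180 and its partner Ly86, a surface complex related to that of Tlr4 and Ly96, had log2 fold changes of 1.33 and 1.17. These 3 were named after their values had been seen. Hsp90b1, a folding chaperone of the receptors and the most abundant gene of the list, read 183 ± 16.8 and 223 ± 109 FPKM and did not pass (adjusted p = 0.681). Ticam1 was not analysed here.

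Downstream of the receptors, 1 of 19 kinases and ubiquitin ligases was upregulated, against 9.29% of all genes tested, and the median log2 fold change was 0.32. Without the limit on the fold change 6 of the 19 were higher at an adjusted p under 0.05 (Irak2, Irak3, Traf3, Tab1, Ikbkb and Ikbke), against 16.9% of all genes, and all FL rats lay above all CL rats for 11, against 35.7%. These genes apart from Irak3 were named after their values had been seen. The upregulated gene was Irak3, which restrains the pathway, with 1.61 FPKM in CL5, 1.70 in CL6 and 2.22 in CL7, against 6.83 in FL2, 3.10 in FL5 and 3.46 in FL12 (log2 fold change 1.16, adjusted p = 0.0333 from limma). FL2 lay highest. Irak1, the most abundant gene of this list, read 28.8 ± 2.81 and 37.0 ± 3.56 FPKM (adjusted p = 0.0811). Of 10 transcription factors, 3 were upregulated, namely Irf5 (log2 fold change 1.57), Relb (1.13) and Nfkb2 (1.02), while Irf3, the most abundant, read 29.7 ± 1.34 and 30.4 ± 4.18 FPKM (adjusted p = 0.893). Of 10 brakes of the pathway, 2 were upregulated, Il1rl1 (1.48), the receptor of interleukin-33, and Tnfaip3 (1.07), an enzyme that edits ubiquitin chains. Dusp1, the most abundant brake in the CL group (in the FL group it was Nfkbia, named after its values had been seen), did not pass (adjusted p = 0.671) and varied within both groups, with 5.21 FPKM in CL5, 45.67 in CL6 and 43.14 in CL7, against 36.41 in FL2, 16.76 in FL5 and 4.71 in FL12.

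Endogenous ligands are molecules of the matrix or of injured cells that are known to engage Tlr2 or Tlr4. Of 9 such genes, 5 were upregulated, against 9.29% of all genes tested. The highest by fold change were the proteoglycan Dcn (2.28), S100a8 (2.20) and S100a9 (1.85) on the log2 scale, the latter a pair that also stands among the neutrophil markers. The matrix proteoglycans Vcan (1.80) and Bgn (1.46) were named after their values had been seen. Dcn read 2.48 ± 0.275 FPKM in the CL and 12.7 ± 3.60 FPKM in the FL group (adjusted p = 0.00173). The most abundant was fibronectin, Fn1, at 376 ± 27.3 and 415 ± 122 FPKM (adjusted p = 0.782). Of 14 inflammatory outputs, 4 were upregulated, against 9.29% of all genes tested. They were Ccl2 (log2 fold change 2.33), Ptgs2 (1.90), Icam1 (1.17) and Cd86 (1.11), of which Cd86 was named after its value had been seen. The 10 others were not called. Their log2 fold changes ran from -0.037 for Il10, 0.021 for Ccl4, 0.042 for Ccl5 and 0.20 for Cxcl10 to 0.91 for Ccl3 and 1.37 for Cd80. These genes were also named after their values had been seen. Icam1, an adhesion molecule for leukocytes, read 5.13 FPKM in CL5, 5.60 in CL6 and 6.01 in CL7, against 13.49 in FL2, 11.06 in FL5 and 13.48 in FL12, so the groups were tight and apart (adjusted p = 0.00307). Cxcl1, a chemokine for neutrophils, was the most abundant output by the mean of the FL group, where Icam1 led in the CL group, but it was high in FL2 alone, with 34.74 FPKM there, 6.52 in FL5 and 2.97 in FL12, whereas the CL rats held 4.21 to 5.77 FPKM (adjusted p = 0.432). Il6, Il12a, Il12b, Ifnb1 and Cxcl2 lay under the filter, as did Map3k7 and Socs1 of the lists of kinases and brakes, and Tnf, Nos2 and Ube2v1 were not analysed here.

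Some of these pathway calls depended on the setting and some did not. Tlr8, Scimp, Unc93b1, Irf5, Dcn and Bgn were called in each of 14 alternatives, and Lbp in 13 of 14 (adjusted p from 0.00699 to 0.0566). The call of Tlr10 held in 4 of 13 alternatives (adjusted p from 0.0253 to 0.222), that of Tril in 3 of 13, Ly86 in 5 of 14, Irak3 in 4 of 14, Relb and Tnfaip3 in 6 of 14 each, Il1rl1 and Ptgs2 in 5 of 13 each, Nfkb2 in 8 of 14, Vcan and Ccl2 in 10 of 13 each, Cd86 in 11 of 14, Icam1 and Cd180 in 12 of 14 each, S100a8 in 3 of 14 and S100a9 in 3 of 13. With quantile normalization Ccl2, Ptgs2, Icam1 and Cd86, the inflammatory outputs that were called, were all lost, and Icam1 and Cd86 also with median scaling.

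**Figure D3:**
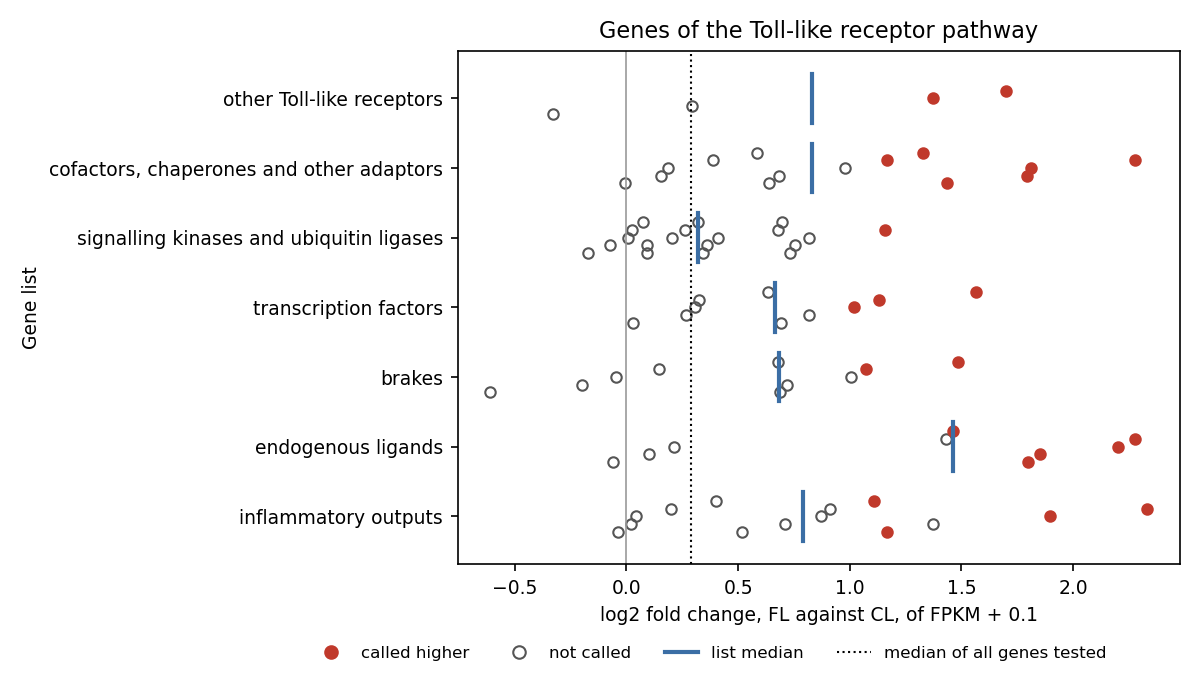
Log2 fold change (FL against CL, on the log2(FPKM + 0.1) scale) of each tested gene of the 7 pathway lists, with filled red points for upregulated genes, open points for the others, blue bars for list medians and a dotted line for the median of all genes tested (0.29). The kinases and ubiquitin ligases have a median of 0.32 and the endogenous ligands one of 1.46.

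By the root mean square difference of log2(FPKM + 0.1) from each gene's CL mean over the 6 rats, 3 genes were most like each of Tlr2, Tlr4 and Cd14 among the protein-coding genes whose mean reached 1 FPKM. For Tlr2, out of 10160 genes, these were Pld3 (0.172), Myo5a (0.177) and Npdc1 (0.196), and Pld3 read 4.98 FPKM in CL5, 5.75 in CL6 and 4.58 in CL7, against 13.01 in FL2, 23.57 in FL5 and 18.05 in FL12. Like Tlr2 it was highest in FL5 and lowest of the FL rats in FL2. For Tlr4, out of 10159 genes, they were Tmem9 (0.0860), Slc2a9 (0.130) and Plau (0.141), each of which shared the high value of CL5 within the CL group. Among Tlr2, Tlr3, Tlr5, Tlr6, Tlr7 and Tlr9, Tlr5 was nearest to Tlr4 (0.261). Tlr8 and Tlr10 were not part of that comparison between receptors. For Cd14 they were Napepld (0.154), MGC108823 (0.193) and Hacl1 (0.204), all lowest in FL12.

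Promoters of 300 bases, from 250 before to 50 after the start of each gene, were taken from RefSeq (build GRCr8) and all 9 genes were matched. Motifs were searched on both strands in these and in all 27457 promoters of that table, as a description of letters. The kappaB motif GGGANTTCC was found in 1.73% of all promoters and in that of Tlr2, where it starts at position -205 from the gene start and, on the other strand, at -204, so that both matches overlap in 1 palindrome. The interferon-type motif GAAANNGAA (9.50% of all promoters) was found in those of Myd88 (at -16) and Cd14 (at 6), the AP-1 motif TGANTCA (7.33%) in Myd88 (at -208) and Tlr9 (at -65), and the C/EBP motif TTGCNNAA (10.5%) in Tlr7 (at -138). The PU.1 motif GAGGAAGT (2.44%) matched 0 of the 9. The promoters of the genes that were upregulated and of Cd14, the gene with the opposite sign, are shown in lower case from 5′ to 3′ on the strand of the gene, with matches to these motifs in capitals; that of Tlr4 holds none. They lie at chr2:171504508-171504807 (minus strand, Tlr2), chr5:85160997-85161296 (plus strand, Tlr4) and chr18:28611109-28611408 (minus strand, Cd14).
Tlr2: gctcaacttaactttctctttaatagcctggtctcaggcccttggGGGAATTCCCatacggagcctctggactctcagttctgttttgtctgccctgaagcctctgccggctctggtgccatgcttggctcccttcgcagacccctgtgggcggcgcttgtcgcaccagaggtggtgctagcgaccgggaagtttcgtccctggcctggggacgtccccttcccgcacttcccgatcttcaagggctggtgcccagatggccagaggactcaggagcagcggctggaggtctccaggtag
Tlr4: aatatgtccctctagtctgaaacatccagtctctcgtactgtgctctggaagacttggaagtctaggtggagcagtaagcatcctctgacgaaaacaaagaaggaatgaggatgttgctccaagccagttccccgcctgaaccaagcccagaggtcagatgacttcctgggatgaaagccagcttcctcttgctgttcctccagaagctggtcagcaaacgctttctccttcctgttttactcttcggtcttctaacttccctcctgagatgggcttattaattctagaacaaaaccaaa
Cd14: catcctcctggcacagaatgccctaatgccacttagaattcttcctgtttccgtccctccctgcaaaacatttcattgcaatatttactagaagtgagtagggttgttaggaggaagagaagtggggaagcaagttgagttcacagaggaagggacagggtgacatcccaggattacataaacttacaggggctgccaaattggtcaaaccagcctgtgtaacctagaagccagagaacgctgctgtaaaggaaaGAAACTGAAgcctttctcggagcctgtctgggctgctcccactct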

How the data were processed

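RNA from the livers of 3 FL and 3 CL rats was compared, with 1 column of values per rat, and rats were grouped by their labels. The authors used FASTX-Toolkit 0.0.13 to trim reads and TopHat2 to align them, and counted on each gene the reads that mapped to 1 place only. The deposited unit is FPKM, written with 2 decimals, and no further scaling of the rats to each other is stated. The submitters' processing notes name GRCh38 as the genome, although the identifiers are Ensembl's for the rat, and chromosomes are those of the deposited table. Beside these, 2 columns of values belong to no sample of the series and were not used. No libraries looked like duplicates, since 0.866% to 2.54% of genes had identical values in a pair of rats.

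Because FPKM are not counts, limma 3.58.1 (R 4.3.3) was fitted to log2(FPKM + 0.1) of the 14864 genes whose mean reached 0.1 FPKM. The prior variance followed the mean (trend), and p-values were adjusted by Benjamini-Hochberg over all of these genes. This scale understates the change of low genes. A called gene had an adjusted p below 0.05 together with a change of 2-fold or more. Standard errors are moderated by limma, and spreads are SD over 3 rats. The procedure was tested on simulated data, where 185 of 200 planted changes were recovered with 4 false calls. The planted changes were larger than that of any of the 9 genes. They were placed in genes above the level of Tlr2, Tlr5, Tlr6 and Tlr9, without a shift shared by all genes. The simulation therefore does not show how well changes like those of the 9 genes are found. As alternatives, the pseudocount was set to 1 or 0.01, the filter was dropped or raised to 1 FPKM, and the other choices were median scaling, quantile normalization, no trend, a robust prior, no fold limit and leaving out each rat. Named genes were the 9 genes found, up to 3 called genes per list and direction by fold change with the most abundant one (by the mean of the 6 rats), cell type markers, Col1a1, Acta2 and the 3 genes most alike in pattern; exceptions are stated. The genes and lists were chosen with earlier results of these data known. A comparison of receptor proteins was not made. Python 3.11.15 with numpy 2.4.6, pandas 2.3.3 and matplotlib 3.10.9 was used.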

Additional observations from a re-analysis of the deposited data

How the results depend on the processing

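Of all genes tested, 1381 were higher and 139 lower in the FL group, and no limit on the fold change gave 2518 and 288. A pseudocount of 1 gave 462 and 72, no filter 846 and 78, and quantile normalization 453 and 231. A mean of at least 1 FPKM gave 854 higher and 94 lower genes, and median scaling 826 and 181. Higher genes were 90.9% of the calls without further scaling, 82.0% with median scaling and 66.2% with quantile normalization. Leaving out 1 rat gave 740 (without CL7; 745 without FL5) to 1831 (without FL2) higher and 81 (without CL6 or CL7) to 160 (without FL2) lower genes.

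Of the 9 receptor and adaptor genes, 2 were upregulated, against 4 with no limit on the fold change, 1 with a mean of at least 1 FPKM (5 genes tested), 1 with median scaling, and 0 with a pseudocount of 1, with no filter and with quantile normalization. In those 3 settings limma gave 5, 5 and 3 genes with an unadjusted p under 0.05. Leaving out 1 rat gave 0 (without CL7, with 4 at an unadjusted p under 0.05) to 2 genes, and 1 without FL5 or FL12. The sign of each of the 9 was kept in every setting that gave it a value. Tlr2, Tlr5, Tlr6 and Tlr9 had no value at a mean of at least 1 FPKM.

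Of the pathway genes, 23 were upregulated, against 9 with a pseudocount of 1, 11 with no filter, 12 with median scaling, 8 with quantile normalization and 12 (without FL5; 13 without CL6 or CL7, 15 without CL5) to 19 with 1 rat left out. Of 36 called pathway and marker genes that are named, 14 were called in every alternative that gave a value, and 22 were lost in at least 1, of which 19 with quantile normalization, 17 with a pseudocount of 1, 14 with no filter, 14 without FL5 and 13 with median scaling. The log2 ratio of Tlr7 to Tlr9 differed by -0.08 and changed sign with a pseudocount of 1 (0.24) and with rats left out (-0.37 to 0.48). Among genes that were not called, the log2 fold change turned negative with median scaling for Hsp90b1 (-0.037), Fn1 (-0.12) and Irf3 (-0.20, and -0.090 with quantile normalization). With 1 rat left out it ran from -0.18 to 0.44 for Hsp90b1, -0.12 to 0.30 for Fn1, -0.061 to 0.14 for Irf3, -1.63 to 0.18 for Dusp1 (0.18 without FL12) and -0.11 to 1.64 for Cxcl1 (-0.11 without FL2). The cause of these shifts was not tested. No paired analysis was possible because the groups held different rats, which the study had divided between them at random. The limits are 3 rats per group, an unknown number of reads behind each value, and low values written with 2 decimals. The low values of Tlr5, Tlr6 and Tlr9 may rest on few reads.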
